A study of Homo sapiens with 7 samples.

Results

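Peaks of 5-hydroxymethylcytosine (5-hmC) were examined at 10 genes that are classic targets of the hypoxia-inducible factors (HIF): CA9, CA12, ADM, BNIP3, BNIP3L, NDRG1, P4HA1, DDIT4, LOX and ANKRD37. A peak was assigned to a gene when its midpoint fell within the gene or the 20 kb on either side, in windows given to the nearest 1 kb of the build hg19. The rule lists the genes by name and uses no value of the peaks, though it was drawn up with earlier results of these data known. Of the 285292 peaks in the normoxia list, 125 lay in the windows, and the hypoxia lists, in the order of time, held 123 of 292707, 138 of 294096, 149 of 312126, 150 of 336931 and 147 of 352484. When overlapping peaks of the 6 lists were merged, 168 of 415474 regions lay in them. The cells were SK-N-BE(2), an established neuroblastoma line with an amplified MYCN gene, labelled as wild type, and were kept at 21% oxygen (0 h, normoxia) or in 1% oxygen (hypoxia) for 6, 12, 24, 48 or 72 h. DNA fragments holding 5-hmC were tagged chemically, captured and sequenced, with 1 library per time and no replicate, in this 1 line. A contrast of times here sets 1 library against another, and, as the sole normoxia library is the 0 h one, low oxygen and time in culture cannot be told apart. Below, a series of 6 values runs in the order 0, 6, 12, 24, 48 and 72 h, and a series of 5 values in the same order without normoxia.

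HIF is a transcription factor whose alpha subunit is hydroxylated and destroyed when oxygen is plentiful. In low oxygen the subunit is stable, pairs with ARNT and binds a short core, ACGTG or GCGTG, in the hypoxia response elements of its target genes. The TET enzymes, which turn 5-methylcytosine into 5-hmC, also use oxygen, and 5-hmC is known to lie in the bodies of transcribed genes and at enhancers, and to be scarce at the starts of genes with CpG-rich promoters. The 10 genes fall into roles. BNIP3 and BNIP3L mark mitochondria for removal. DDIT4 restrains mTORC1 signalling, and NDRG1 is a stress-response protein. CA9 and CA12 are carbonic anhydrases at the cell surface that handle acid. P4HA1 hydroxylates collagen and LOX cross-links it. ADM is a vasodilator peptide, and ANKRD37 is an ankyrin-repeat protein.

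The stretch directly upstream of the start is shown for 5 of these genes, picked after their values were seen. BNIP3 and DDIT4 had the largest regional differences between normoxia and hypoxia. ANKRD37 had a region that ended 0.163 kb before its approximate hg19 start, and CA9 and P4HA1 each had a region at theirs. The hg19 starts are known here to 1 kb, so whether such a region lies over a start or beside it cannot be told. CA12, not shown, also had a region at its approximate start, and its promoter held 1 core, of the GCGTG form. The sequences are those of RefSeq, placed on GRCh38.p14 where the peaks are placed on hg19, so positions of the one were not set against the other. They were matched by symbol, which found 8 of the 10 genes (BNIP3L and NDRG1 have no entry). Each has 250 bases and is written in the direction of the gene, with capitals for ACGTG or GCGTG on either strand (on the other strand CACGT or CACGC), where overlapping matches form 1 run. The positions are chr10:131981924-131982173 on the minus strand for BNIP3, chr10:72273674-72273923 on the plus strand for DDIT4, chr4:185396591-185396840 on the plus strand for ANKRD37, chr9:35673678-35673927 on the plus strand for CA9 and chr10:73096867-73097116 on the minus strand for P4HA1.
BNIP3: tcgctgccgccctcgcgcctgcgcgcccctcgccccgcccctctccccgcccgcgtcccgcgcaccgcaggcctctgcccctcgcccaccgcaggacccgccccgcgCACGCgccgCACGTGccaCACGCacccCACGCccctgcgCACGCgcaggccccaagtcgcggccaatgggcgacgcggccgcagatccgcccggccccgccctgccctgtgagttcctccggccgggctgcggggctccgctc
DDIT4: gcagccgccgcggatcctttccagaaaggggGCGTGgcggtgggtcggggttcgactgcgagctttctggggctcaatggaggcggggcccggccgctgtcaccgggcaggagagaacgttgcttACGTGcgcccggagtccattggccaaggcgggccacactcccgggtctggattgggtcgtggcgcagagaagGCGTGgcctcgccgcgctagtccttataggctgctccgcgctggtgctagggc
ANKRD37: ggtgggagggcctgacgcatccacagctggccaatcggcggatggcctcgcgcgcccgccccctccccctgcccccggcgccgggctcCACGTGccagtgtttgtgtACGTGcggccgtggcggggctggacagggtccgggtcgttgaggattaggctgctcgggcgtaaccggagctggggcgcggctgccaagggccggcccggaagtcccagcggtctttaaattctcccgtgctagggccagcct
CA9: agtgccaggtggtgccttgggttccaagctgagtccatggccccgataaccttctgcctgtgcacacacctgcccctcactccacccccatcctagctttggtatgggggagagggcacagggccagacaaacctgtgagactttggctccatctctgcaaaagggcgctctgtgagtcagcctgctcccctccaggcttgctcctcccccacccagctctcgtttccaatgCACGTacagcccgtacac
P4HA1: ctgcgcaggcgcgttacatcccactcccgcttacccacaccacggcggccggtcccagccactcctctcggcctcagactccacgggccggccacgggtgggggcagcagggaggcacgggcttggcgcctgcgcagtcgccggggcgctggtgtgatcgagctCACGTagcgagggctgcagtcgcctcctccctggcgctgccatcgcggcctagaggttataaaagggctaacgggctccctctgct

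All 8 matched promoters held at least 1 such core, as did 43.2% of the 35116 promoters of the table, and 6 of the 8 held the ACGTG form, which 18.5% of all promoters hold. BNIP3 had 5 runs, the first starting at -143 from the start and the last at -104, and it had 41 CpG dinucleotides, more than 98.3% of all promoters. DDIT4 had 3 runs and 26 CpG, ANKRD37 2 runs and 26 CpG, P4HA1 1 run at -86 and 25 CpG, and CA9 1 run at -18 and 5 CpG, against a median of 11 CpG over all promoters. Of the matched genes not shown, LOX had 4 runs and 13 CpG, ADM 1 run and 16 CpG, and CA12 1 run and 13 CpG. Whether the number of runs goes with covered length was not tested. A match of letters is a description and not a measured binding site.

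In the windows as a whole, more DNA was covered by peaks in hypoxia than in normoxia, and the difference exceeded that of the lists. Covered length, the summed width of the peaks, was 66.7, 73.0, 77.6, 89.8, 103.6 and 103.0 kb over the 10 windows. The 48 and 72 h values are 1.55 times that of normoxia for both, whereas the whole lists covered 1.22 and 1.31 times their 0 h length. Each window was therefore read as a relative covered length, its ratio to 0 h divided by the ratio of the whole lists. For the windows together this was 1.18 at 72 h. It was 1.11 without BNIP3 and 1.03 without BNIP3 and DDIT4, so most of the excess in summed length at 72 h lay in these 2 windows.

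Relative covered length was above 1 in 5, 7, 8, 9 and 8 of the 10 windows. Among 23876 bins of 50 kb with a mean of at least 5 peaks, the share above 1 was 49.9, 49.4, 48.9, 48.2 and 49.3%. BNIP3L was the only window of at least 1.5 at 12 h (2.59% of bins), BNIP3 joined it at 24 h (4.02% of bins), and BNIP3, BNIP3L, DDIT4 and ADM were past it at 48 h (7.25%) and again at 72 h (8.97%). None was past it at 6 h, where 2.71% of bins were. No window was at or below the inverse of 1.5, where 1.69, 1.58, 0.909, 1.46 and 2.18% of bins lay. With bins of 100 kb, 4.99% were at least 1.5 at 72 h, and with every 50 kb bin that had a peak in normoxia 20.2% were. At 72 h the median over the 10 windows was 1.20, and over the bins 0.996. BNIP3L and ANKRD37 had means of 4.17 and 4.33 peaks, under the minimum set for the bins. Bins that sparse vary more: 36.7% of those with a mean of 1 to under 5 peaks were at least 1.5 at 72 h, so a ratio past 1.5, as BNIP3L has, is common in such bins.

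**Figure D1:**
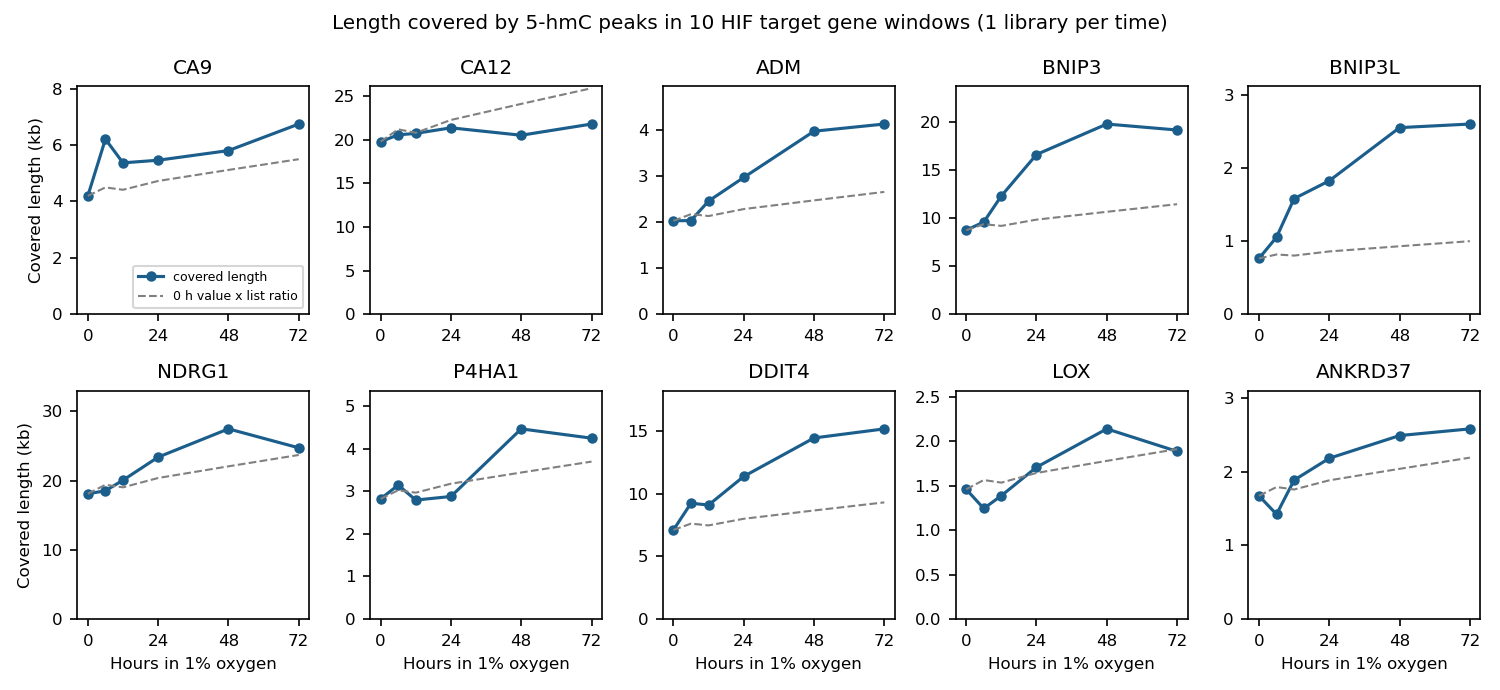
Length covered by 5-hmC peaks (kb, vertical axes starting at 0) against hours in 1% oxygen for the 10 windows, each point 1 library, with the 0 h value multiplied by the ratio of the whole lists as a dashed line. BNIP3 goes from 8.74 kb at 0 h to 19.8 kb at 48 h, far above its dashed line. CA12 stays between 19.8 and 21.8 kb and lies below its line at each time in hypoxia, farthest at 48 and 72 h.

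**Figure D2:**
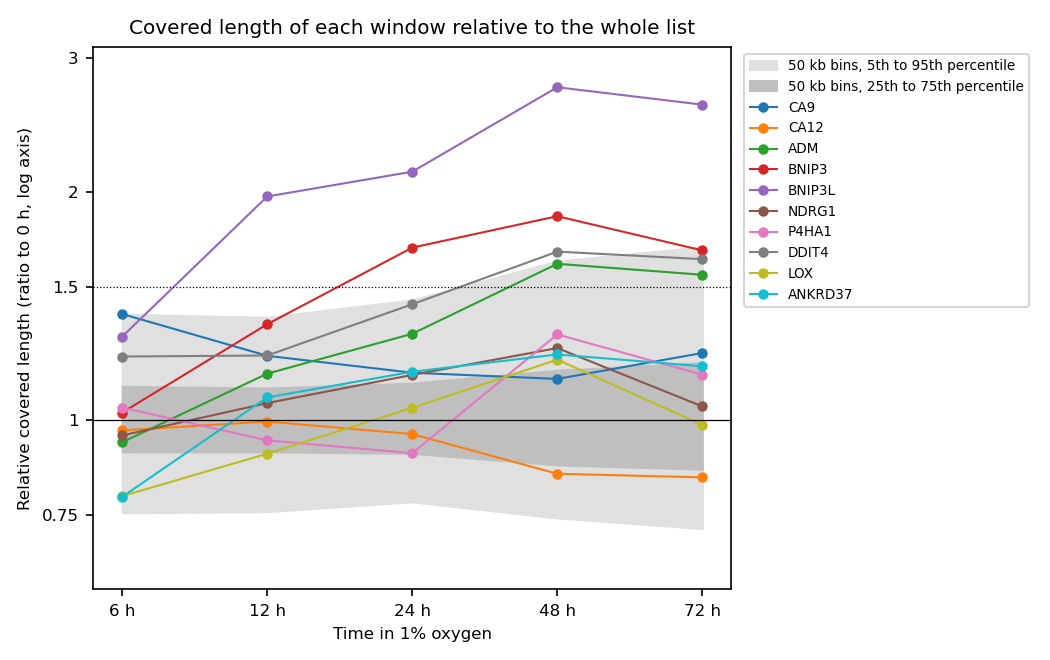
Relative covered length (ratio to 0 h divided by the ratio of the lists, log axis) of each window at the 5 times in hypoxia, with grey bands for the 50 kb bins and a dotted line at 1.5. BNIP3, BNIP3L, DDIT4 and ADM lie above 1.5 at 48 and 72 h, and CA12 is the lowest of the 10 at both times.

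BNIP3 held the largest single difference. Inside the gene, normoxia had 7 separate peaks where the 48 h library had 1 peak of 11775 bp. The region lies on chromosome 10 from 133782465 to 133794350, begins 1.65 kb inside the start of this 15 kb gene, and was covered over 3852, 4504, 6619, 10220, 11775 and 11298 bp, by 7, 6, 9, 7, 1 and 4 peaks. Each of the 5 hypoxia lists covered more of it than the normoxia list. As a share of the gene span, coverage was 25.7, 30.0, 44.1, 68.1, 78.5 and 75.3%.

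In normoxia the widest peak of the BNIP3 window, with 1620 bp, lay past the gene and ranked 6066 of 285292 by width. The widest peak of the 24 h library lay inside the gene, measured 6001 bp and ranked 68 of 312126. The 48 h peak ranked 2 of 336931, and the widest of the 72 h library, with 9122 bp, ranked 6 of 352484. By added length against 0 h, the region ranked 1 of all 415474 regions at 48 h, with 7923 bp, and at 72 h, with 7446 bp. It also ranked 1 at both times against the 6 h list, and when peaks within 300 bp of each other were merged. In bins of 10 kb, which do not depend on how peaks are merged across the lists, the leading BNIP3 bin ranked 1 of 162758 at 48 h and 2 at 72 h. The bins still count the sequence between peaks as covered once a list joins them into 1 peak. These ranks describe 1 pair of libraries each and carry no test.

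**Figure D3:**
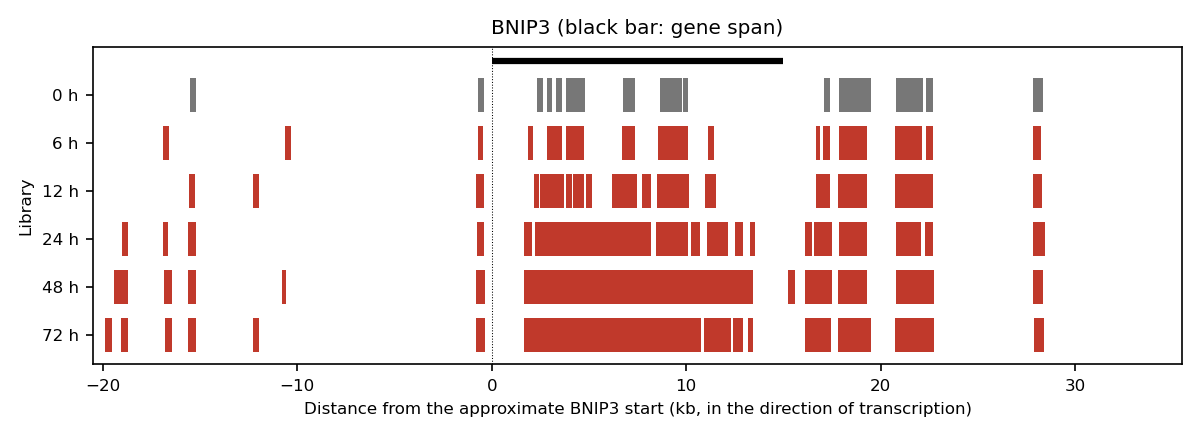
Peaks of the BNIP3 window in each library, as bars along the distance from the approximate gene start (kb, in the direction of transcription), with normoxia in grey, hypoxia in red and the gene span in black. The separate peaks inside the gene at 0 h give way to longer peaks in the later libraries, with 1 peak of 11775 bp at 48 h.

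The region just upstream of the approximate BNIP3 start differed less than the one inside the gene. It runs from 133796332 to 133796831 and was present in all 6 lists, with widths of 331, 289, 401, 379, 498 and 490 bp. The upstream flank as a whole was covered over 649 bp at 0 h, 2293 bp at 48 h and 2310 bp at 72 h. As a ratio to 0 h, the difference of this flank was larger than that of the gene span, and in bp it was smaller. Past the gene end, the region from 133776496 to 133778200 measured 1620, 1410, 1458, 1435, 1478 and 1705 bp, with normoxia inside the range of hypoxia. Next to it, the region from 133778508 to 133779900 had 346 bp in normoxia and 634, 756, 1292, 1358 and 1351 bp in hypoxia. In the 500 kb on both sides of the window, relative covered length was 0.959 at 48 h and 0.892 at 72 h, against 1.86 and 1.67 inside it. RefSeq lists PPP2R2D as overlapping BNIP3, so peaks in the overlap cannot be given to 1 gene.

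The BNIP3 window held 14, 15, 16, 17, 11 and 14 peaks, a number that did not follow covered length. At 72 h the ratio of peak numbers was 1 (95% Clopper-Pearson interval 0.442 to 2.26, counting error only), where covered length was 2.19 times that of 0 h.

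BNIP3L, the paralog of BNIP3, had few peaks, and none inside the gene at 0, 6 or 12 h. Its window covered 763, 1054, 1581, 1825, 2552 and 2601 bp. The peaks inside the gene at 24 h and later all lay near its start, on chromosome 8 from 26242398 to 26243271 (410, 843 and 785 bp from 24 h on) and from 26241684 to 26242261 (430 and 578 bp from 48 h on). The nearer of the 2 regions begins 1.68 kb past the approximate start. Past the gene end, 2 regions were present in all lists and measured 289 and 474 bp in normoxia against 416 and 559 bp at 72 h. The window held 2 peaks at 0 h and 6 at 72 h, a ratio of 3 with an interval from 0.536 to 30.4, so the difference in number was not beyond counting error.

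DDIT4, a gene of 3 kb, had its largest difference over its later part and the sequence past its end. The region on chromosome 10 from 74034515 to 74037633 begins 1.51 kb past the start and was covered over 1335, 2435, 2074, 2371, 3068 and 3081 bp, by 4, 2, 3, 4, 1 and 1 peaks. All hypoxia libraries lay above normoxia, already at 6 h. By added length against 0 h it ranked 20 of 415474 regions at 48 h and 21 at 72 h. These ranks moved with the unit and the reference. They were 71 and 80 of 359131 with peaks within 300 bp merged, 29 and 40 of 162758 for the leading DDIT4 bin of 10 kb, and 2009 and 3248 for the region against the 6 h list.

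The whole DDIT4 window covered 7109, 9244, 9099, 11380, 14450 and 15175 bp, from 16.5% to 35.3% of its length. All 7 of its regions with exactly 1 peak in each list were wider at 72 h than at 0 h, with medians of 432 and 707 bp, where 71.2% of all such regions were wider, with medians of 434 and 502 bp. Upstream, the region from 74022993 to 74024187 measured 532 bp in normoxia and 745, 359, 880, 1036 and 1170 bp in hypoxia, lower than normoxia in the 12 h library alone. Relative covered length was 0.972 at 48 h and 0.982 at 72 h in the 500 kb on both sides, against 1.67 and 1.63 in the window. A downstream region from 74049290 to 74049904 was absent in normoxia and had 302, 244, 233, 458 and 598 bp in hypoxia.

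NDRG1 had 29 peaks in normoxia. Its window covered 18089, 18519, 20045, 23377, 27454 and 24719 bp. Relative to the lists this was 1.25 at 48 h and 1.04 at 72 h, close to the 1.24 and 1.10 of the 500 kb on both sides. Its widest region, on chromosome 8 from 134283917 to 134289339, was covered over 4968, 5208, 4803, 5050, 5298 and 5006 bp, with normoxia inside the range of hypoxia.

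Near the NDRG1 start, the region from 134307335 to 134308342, which begins 1.66 kb inside the gene, was absent at 0 h and measured 381, 426, 892, 1004 and 865 bp in hypoxia. Beside it, the region from 134306360 to 134307005 was present from 12 h on, with 273, 454, 552 and 644 bp, and that from 134304053 to 134304564 from 24 h on, with 327, 429 and 512 bp. Upstream, the regions from 134320354 to 134320902 and from 134321724 to 134322100 had no peak in normoxia and one in each hypoxia library, at 235 to 453 bp and 233 to 349 bp. Past the gene end, the region from 134246675 to 134247959 was absent at 0 h and measured 330, 537, 896, 1285 and 994 bp later. The only region of the 10 windows found in normoxia alone also lay in NDRG1, from 134274858 to 134275144, with 287 bp.

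**Figure D4:**
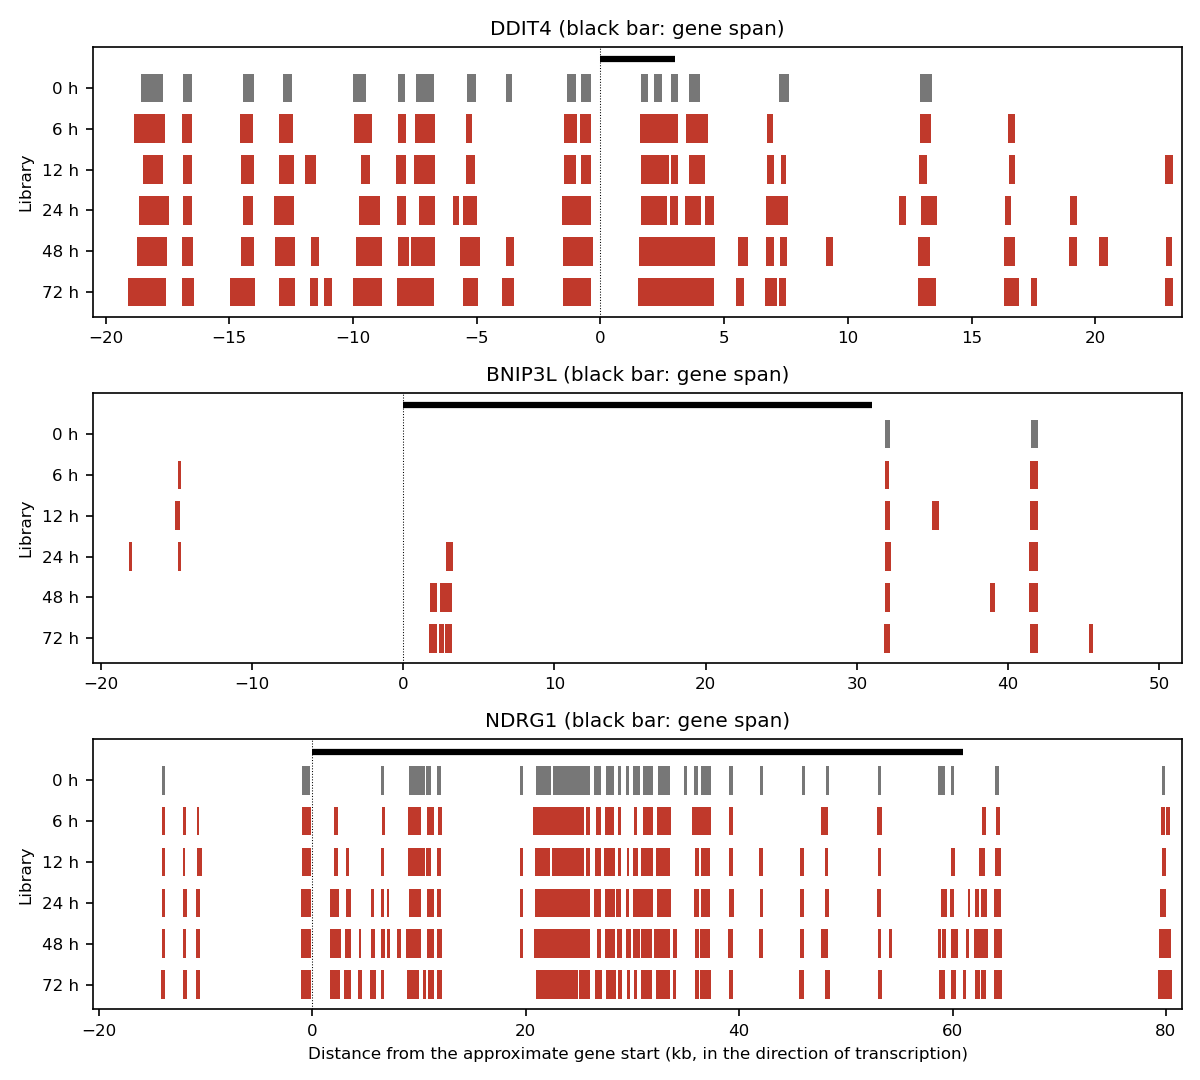
Peaks of the DDIT4, BNIP3L and NDRG1 windows in each library, along the distance from the approximate gene start (kb, in the direction of transcription), with normoxia in grey, hypoxia in red and the gene span in black. The later libraries hold 1 peak of over 3 kb at DDIT4, and peaks just inside the starts of BNIP3L and NDRG1 where the 0 h library has none.

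Of the 2 carbonic anhydrases, one lay above the lists and the other below. CA9 covered 4.20, 6.21, 5.37, 5.46, 5.80 and 6.74 kb, above the lists at each time, with the highest relative value, 1.38, at 6 h. CA12 covered 19.8, 20.6, 20.7, 21.4, 20.5 and 21.8 kb. Relative to the lists, CA12 was at 0.851 at 48 h and 0.842 at 72 h, below those of the other 9 windows.

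At the approximate CA9 start, a region on chromosome 9 from 35673596 to 35674162 was present in all lists, with 414 bp in normoxia and 314 to 555 bp in hypoxia. The CA9 sequence shown above is the RefSeq stretch before the GRCh38.p14 start, and its place relative to this region was not determined. A region by the gene end, from 35681615 to 35681960, was absent in normoxia and had 235 to 309 bp in hypoxia. The largest difference of the window, from 35691172 to 35692485 with 444, 1140, 771, 749, 976 and 1207 bp, lay in the downstream flank. RefSeq lists TPM2 and TLN1 among the genes in the flanks of CA9. The widest region in total, from 35656314 to 35657391, lay in the upstream flank and had 707 bp in normoxia and 986 to 1058 bp in hypoxia.

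In CA12, 27 of 36 regions were in all 6 lists, the largest number of the 10 windows, and none was in the 5 hypoxia lists without normoxia. Its widest region, on chromosome 15 from 63639820 to 63641794, was covered over 1713, 1975, 1572, 1700, 1580 and 1711 bp. Of its 22 regions with exactly 1 peak in each list, 17 were wider at 72 h, but their median was 548.5 bp then and 555.5 bp in normoxia. A region from 63634038 to 63634495 had 400, 305, 247 and 261 bp from 0 to 24 h and no peak at 48 or 72 h.

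The genes for collagen enzymes had few peaks. P4HA1 covered 2.82, 3.14, 2.79, 2.88, 4.46 and 4.24 kb in a window of 130 kb. LOX covered 1459, 1243, 1387, 1707, 2138 and 1885 bp. RefSeq lists SRFBP1 as overlapping LOX. In the 500 kb on both sides, relative covered length at 72 h was 1.55 for P4HA1 and for LOX, above the 1.15 and 0.987 of the windows themselves.

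At the approximate P4HA1 start, the region on chromosome 10 from 74856933 to 74858049 measured 326 bp in normoxia and 391, 567, 426, 557 and 1009 bp in hypoxia. This was the largest widening among the 66 regions of the windows with exactly 1 peak in each list. The P4HA1 promoter printed above is the RefSeq stretch before the GRCh38.p14 start, and its place relative to this region was not determined. The widest P4HA1 region in total lay in the upstream flank, from 74870653 to 74871404, with 589 to 728 bp. In LOX, a peak near the start, on chromosome 5 from 121414174 to 121414625, was present with 452 and 242 bp at 48 and 72 h alone, and one inside the gene, from 121403260 to 121403671, was present from 0 to 24 h (288, 318, 231 and 286 bp) and absent later. The widest LOX region in total, from 121389929 to 121390319, had 283 to 367 bp.

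ADM had no peak within its 3 kb gene in any of the 6 lists. Its window covered 2033, 2039, 2463, 2976, 3983 and 4139 bp, so that the 6 h library was level with normoxia and the later ones above it. Of its 7 regions that normoxia lacked, 4 lay upstream and 3 downstream. The 3 downstream ones lay on chromosome 11 from 10330751 to 10331637 (635, 478, 875 and 723 bp from 12 h on), from 10339925 to 10340435 (269, 293, 446 and 426 bp from 12 h on) and from 10340510 to 10341070 (413, 356, 379, 521 and 538 bp from 6 h on). Upstream, a region from 10313314 to 10313637 had 233, 264 and 282 bp from 24 h on, and one from 10316413 to 10317101 had 607 bp in normoxia and 255 bp at 24 h and was absent in the rest. The widest ADM region in total, from 10336073 to 10336718, was in all lists with 433 to 637 bp. Relative covered length was 1.61 at 48 h and 1.55 at 72 h, against 1.09 at both times in the 500 kb on both sides.

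ANKRD37 covered 1674, 1423, 1887, 2184, 2492 and 2583 bp. Its widest region lay by the approximate gene start, on chromosome 4 from 186315475 to 186316837. It was covered over 971, 758, 876 and 1110 bp by 2 peaks at 0, 6, 12 and 24 h, and over 1329 and 1363 bp by 1 peak at 48 and 72 h. Inside the gene a peak was present with 262 and 253 bp at 48 and 72 h alone. RefSeq lists LRP2BP and UFSP2 as overlapping ANKRD37, so peaks in the overlap cannot be given to 1 gene.

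Across the 10 windows, the presence of regions was much like that of the genome. Of the 168 regions, 85 (50.6%, 95% Clopper-Pearson interval 42.8 to 58.4%) were in all 6 lists, against 46.8% of all regions. Absent in normoxia were 64 (38.1%, 30.7 to 45.9%), against 37.3%. The strictest class, present in each hypoxia library and absent in normoxia, held 7 (4.17%, 1.69 to 8.40%), against 2.99%, of which 4 lay in NDRG1 and 1 each in CA9, ADM and DDIT4. Absent in normoxia and present at both 48 and 72 h were 29 (17.3%, 11.9 to 23.8%), against 13.7%, and 9 of these lay in NDRG1.

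By first time of presence, 3 regions (1.79%) were in every list from 12 h on and in no earlier one, against 1.39% of all, and 6 (3.57%) from 24 h on, against 1.94%. At 48 and 72 h alone were 8 (4.76%), against 3.61%. In 1 hypoxia list alone were 23 (13.7%), against 16.0%. In the other direction, 5 regions were in normoxia and absent at both 48 and 72 h (2.98%, against 3.81%), 5 left the lists once and did not return (2.98%, against 3.7%), and the one in normoxia alone makes 0.595% (0.0151 to 3.27%), against 1.84%. The share of all regions lay inside the interval of the windows in every class, with intervals that cover counting error only.

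Most regions were longer at 72 h than at 0 h, in the windows and in the genome. Of the 85 regions in all lists, 69 (81.2%, 71.2 to 88.8%) covered more at 72 h and 16 less, against 71.1% of all 194585 such regions, a share just under the interval. In the 66 with exactly 1 peak in each list, the medians were 464, 468, 450.5, 489.5, 529.5 and 557 bp, and 53 (80.3%, 68.7 to 89.1%) were wider at 72 h, against 71.2% of all 155718 such regions. Here the share of all lies within the interval. These intervals cover counting error only and treat regions of 1 window as independent, though 27 of the 85 lay in CA12 and 18 in NDRG1. Among the 66, the 3 that widened most were the P4HA1 start region and 2 DDIT4 regions upstream of the gene, from 74013908 to 74015559 (from 888 to 1551 bp) and the one from 74022993 named above. The 3 that narrowed most went from 565 to 479 bp in CA12 (63621842 to 63622439), from 486 to 410 bp in P4HA1 (74777800 to 74778328) and from 523 to 456 bp in CA9 (35659293 to 35660068).

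By place, the gene spans together were covered over 38.6 kb at 0 h, 57.3 kb at 48 h and 53.6 kb at 72 h, which is 1.06 relative to the lists at 72 h and 0.930 without BNIP3. The upstream flanks went from 13.4 kb to 24.0 kb at 72 h (1.37 relative to the lists, 1.30 without BNIP3), and the downstream flanks from 14.5 kb to 25.1 kb (1.33, or 1.46 without BNIP3). The gene spans without BNIP3 were above the lists at 12, 24 and 48 h, at up to 1.08 in the last. The flanks also hold other genes, such as NUDT13 beside P4HA1.

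The order of the 6 libraries in time gives the only test this design allows. The share of the list's covered length that fell in a window was set against hours by Spearman's rho with an exact two-sided permutation test, for the 10 windows and all bins, and p was adjusted by Benjamini-Hochberg over these 23886 features. No window passed after adjustment, and the smallest adjusted p of any feature was 0.121, where 6 libraries allow no rank p under 0.00278. At an unadjusted exact permutation p of 0.05 or less, 4 windows had a positive rho, as did 6.38% of bins, and 1 a negative rho, as did 8.68% of bins. For DDIT4, rho was 0.943, with an exact permutation p of 0.0167 and an adjusted p of 0.171, and Pearson's r was 0.916 (exact permutation p = 0.00972, adjusted p = 0.109). BNIP3L had the same rho and its p-values, with r = 0.875 (exact permutation p = 0.025, adjusted p = 0.149).

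For ADM, rho was 0.886, with an exact permutation p of 0.0333 and an adjusted p of 0.221, and r was 0.920 (exact permutation p = 0.00833, adjusted p = 0.104). ANKRD37 had the same rho and r = 0.705 (exact permutation p = 0.1, adjusted p = 0.280). CA12 had a rho of -0.943 (exact permutation p = 0.0167, adjusted p = 0.171) and r = -0.950 (exact permutation p = 0.00694, adjusted p = 0.102). With the 48 and 72 h libraries left out, which lie farthest from the median of the hours, r over 4 libraries was 0.956 for DDIT4, 0.927 for BNIP3L, 0.912 for ADM, 0.664 for ANKRD37 and -0.684 for CA12. BNIP3 missed the threshold, with rho = 0.829 (exact permutation p = 0.0583, adjusted p = 0.261) and r = 0.801 (exact permutation p = 0.0597, adjusted p = 0.217), its 48 h value being the highest. In the other 4 windows rho lay between 0.2 and 0.6. Leaving out each list in turn, 0 to 3 windows passed unadjusted, but 5 lists allow a p of 0.05 or less only for a perfect order (exact permutation p = 0.0167, and 0.0833 for a rho of 0.9), so the smaller design alone lowers this count. The p-values measure the order of single libraries and hold no replicate error.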

How the data were processed

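The members, windows and measures were chosen with earlier results of these data known. The authors deposited 1 peak list per captured library, giving peak positions on a chromosome, with no height, fold, p or q. Per the submitters' processing notes, the tools were MACS2, HTSeq and BWA 0.7.17, on hg19, with their roles not given in the sources used here. The calling threshold is likewise not given in the sources used here, and the input was not analysed here. Read depth is unknown. The lists covered 147 to 192 Mb and their narrowest peak measured 226 to 242 bp, and a longer list or a wider peak can follow depth as well as 5-hmC.

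Gene spans are the windows less 20 kb at each side. Strands are from RefSeq, and for BNIP3L and NDRG1 from general knowledge. The gene table at hand is for GRCh38.p14 and gave names of neighbours alone, so other HIF pathway genes were not placed. Peaks overlapping by 1 bp were merged into regions. Bins were called, by size alone, at a relative covered length of at least 1.5 or at most its inverse. All 10 genes were named, with the widest region of each, those in every hypoxia list and absent in normoxia, those in normoxia alone, and the 3 single-peak regions that widened or narrowed most. Other regions and the ranks were chosen after their values were seen. The identity of the line could not be checked from peak positions. Computations were tested on simulated lists. Tables were handled with pandas 2.3.3 under Python 3.11.15, tests used SciPy 1.17.1 with NumPy 2.4.6, and plots Matplotlib 3.10.9.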

Additional observations from a re-analysis of the deposited data

How the results depend on the processing

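No paired analysis was possible because each time has 1 library. The 8 windows above the lists at 72 h and the 4 past the fold were 4 and 2 of the 7 with a peak at 0 h in the gene span alone, and 4 and 2 with peak number in place of covered length. With the 285292 widest peaks of each list 3 were past the fold, and ADM fell under it (log2 relative value 0.48). Against the 6 h list 3 were past it, and DDIT4 fell under it (0.43). With peaks of at least 500 bp 3 of 7 were past it, and ADM fell under it (0.17). By peak number the log2 relative values of BNIP3 and DDIT4 at 72 h turned to -0.31 and -0.14, since joined peaks count as 1, and with peaks of at least 500 bp that of DDIT4 was 2.02. Regions in all 5 hypoxia lists without normoxia were 7 of 168 in the main analysis. They were 4 of 155 with the 285292 widest peaks of each list and 2 of 74 in the gene spans. Those in all 6 lists were 85 of 168 in the main analysis. With peaks of at least 500 bp they were 28 of 83, and in the gene spans 39 of 74. Windows that followed hours at an unadjusted exact permutation p of 0.05 or less numbered 5 (4 rising, 1 falling), and none passed after adjustment. Of bins, 6.38% rose and 8.68% fell at that p. The count of windows was 1 by peak number, 1 in the gene spans and 0 to 3 with each list left out, where 5 lists pass only in perfect order. Single-peak regions wider at 72 h numbered 22 of 30 in the gene spans, where fewer regions are tested. For single windows, 8 of 74 alternatives turned the sign of the log2 value. Besides BNIP3 and DDIT4 these were windows under the fold: P4HA1 (0.20 to -0.11) and ANKRD37 (0.24 to -0.31) by peak number, NDRG1 in the gene span (0.06 to -0.15), CA9 (0.29 to -0.17) and LOX (-0.02 to 0.31) against 6 h, and LOX at 48 h (0.27). With peaks of at least 500 bp, P4HA1 was 1.82, where its widest 0 h peak, of 589 bp, was the only one that wide. At 0 h no peak lay in the gene spans of ADM, BNIP3L and ANKRD37, and none of at least 500 bp in the windows of BNIP3L, LOX and ANKRD37, so these gave no value there. The 48 h end point was added after seeing the data.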
